A study of Mus musculus with 4 samples.

Results

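Temporal identity factors are the genes that set what a neural progenitor makes at a given stage of development. The 10 examined here were taken by gene symbol, of 27293 genes counted in 4 RNA-seq libraries of mouse brain tissue at embryonic day 13 (E13). The tissue is called cerebral cortex in the study's methods and forebrain in a figure legend. The 6 early factors were Lin28a, Lin28b, Hmga2, Igf2bp1, Igf2bp2 and Igf2bp3, and the 4 late factors were Nfia, Nfib, Nfic and Nfix. The comparison asked whether their RNA levels differed between STINGcKO embryos, which carry floxed STING alleles and a Nestin-Cre transgene, and controls. STING is an adaptor protein of innate immunity that is activated by cGAMP, the product of the DNA sensor cGAS. The Nestin promoter drives Cre in neural progenitor cells (NPCs), and recombination in other cells of the tissue was not measured here. Of the 4 libraries, WT 1 and WT 2 are labelled wild type, and cKO 1 and cKO 2 are labelled knockout. The study's methods name C57BL/6 mice and a cross of the floxed line to that strain, and state no strain for the sequenced embryos themselves. The title of WT 2 carries the letters "nes", and whether that embryo carried Nestin-Cre was not given in the sources used here. Nothing in the labels says that the libraries of a group came from separate litters, so p-values measure the spread between these libraries.

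The STING gene, listed as Tmem173, had 20 and 19 counts in WT 1 and WT 2, and 18 and 22 in cKO 1 and cKO 2. These counts do not separate the groups, so "cKO" below means a library labelled so, and every direction rests on those labels. A count over the whole gene does not check the deletion of a floxed part. The libraries held 17209654 to 18533391 counts. The 9 cortical progenitor markers summed to between 2211 and 2472 CPM (counts scaled to equal library size with edgeR's TMM factors) in every library. The 8 ventral telencephalon markers summed to between 667 and 1072 CPM, so RNA of that region was present in every library. Counts of 4 Y-linked genes summed to 0 in WT 2 and to between 1848 and 3002 in the other libraries. The sex of the embryos is not in the labels, and its part in the results was not tested.

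As background, progenitors of the early cortex express LIN28A and LIN28B, RNA-binding proteins that block the maturation of the microRNA let-7. HMGA2 is a chromatin protein of young stem cells, and the IGF2BP proteins bind and stabilise RNAs of fetal tissues. Mature let-7 binds 3′ UTRs through its seed, bases 2 to 8, and lowers the RNA and protein of several early factors, Lin28b and Hmga2 among them. The nuclear factor I (NFI) transcription factors rise in progenitors as neurogenesis proceeds and act in the switch to the making of glia.

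The mature let-7 sequences are shown first, because the early factors are linked to each other through this seed. Of 11 distinct mature sequences of the let-7 and miR-98 family in RefSeq (GRCm38.p6), 10 share the seed GAGGUAG. The seed is in capitals in the 3 examples printed here, 5′ to 3′. The libraries were not small RNA libraries, so no level of these microRNAs was measured.
let-7a: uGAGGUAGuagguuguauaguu
let-7b: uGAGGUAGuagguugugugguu
let-7c: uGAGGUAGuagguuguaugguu

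A match to this seed is the letters CTACCTC in the RNA's sense strand, and a match followed by A, CTACCTCA, was counted as an 8-base match. For each gene 1 annotated transcript was searched (GENCODE M21, GRCm38), the one with the longest coding part. All 6 early factors held at least 1 match in the 3′ UTR, and each had an 8-base match. Lin28b, Hmga2 and Igf2bp1 had 4 matches each, Lin28a had 2, and Igf2bp2 and Igf2bp3 had 1 each. Of the late factors, Nfia had 1 match of 7 bases in a 3′ UTR of 7636 bases. Nfib and Nfix had 0 in 6509 and 3951 bases, and Nfic had 0 in an annotated 3′ UTR of only 145 bases. Among 13471 tested genes with an annotated 3′ UTR, 9.47% had a match, 3.30% had an 8-base match and 0.0668% had 4 or more. Long 3′ UTRs hold more matches by length alone, and 22.4% of the 2568 genes with at least 2500 bases had one. A match describes letters in the sequence and does not show binding.

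The first matches of the early factors and the match of Nfia are given as 23-base windows on the RNA's strand, with the letters that pair with the seed in capitals. The sites of Lin28b and Hmga2 lie 36 and 58 bases into their 3′ UTRs. They are at chr10:45381022-45381044 (minus strand) and chr10:120364224-120364246 (minus strand). The others are at chr11:95961778-95961800 (minus), chr16:22059473-22059495 (minus), chr6:49086787-49086809 (minus), chr4:134005189-134005211 (minus) and chr4:98117918-98117940 (plus), in the order printed.
Lin28b: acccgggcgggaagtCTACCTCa
Hmga2: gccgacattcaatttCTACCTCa
Igf2bp1: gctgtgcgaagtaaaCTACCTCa
Igf2bp2: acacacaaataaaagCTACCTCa
Igf2bp3: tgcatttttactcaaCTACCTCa
Lin28a: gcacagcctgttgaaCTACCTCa
Nfia: gatacaggagaagtgCTACCTCt

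**Figure D1:**
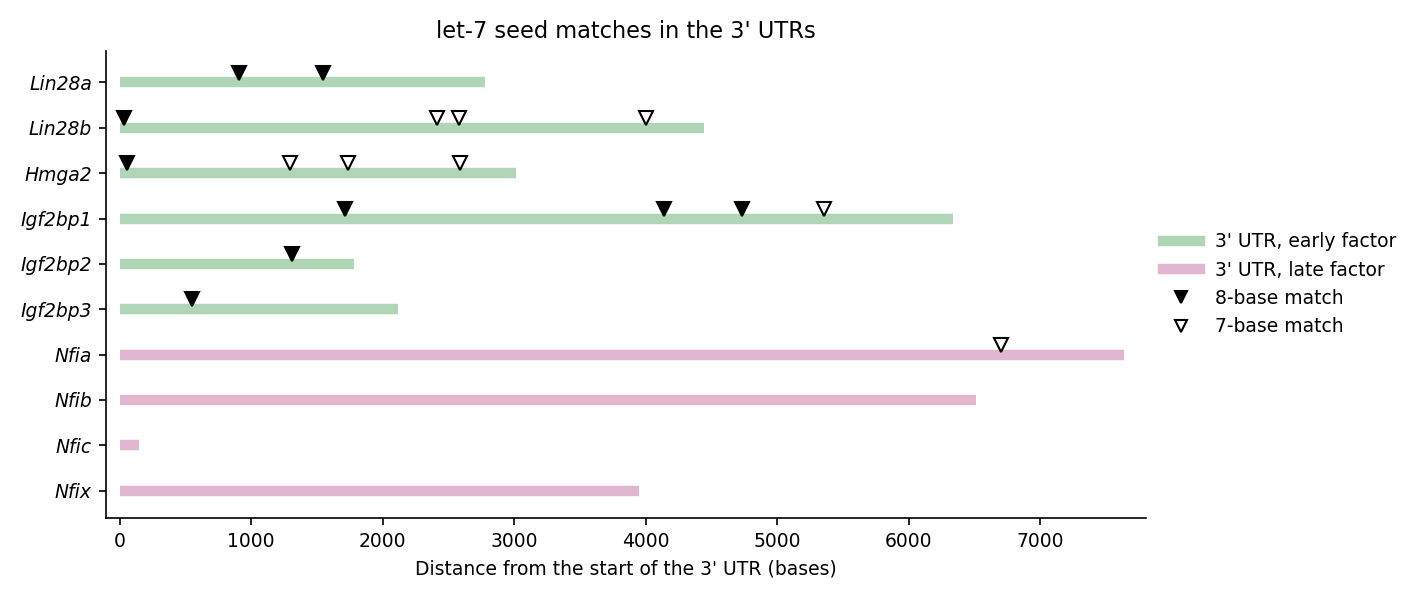
Positions of let-7 seed matches along the annotated 3′ UTR of each temporal factor, in bases from its start, with bars for the 3′ UTR and triangles for matches (filled, 8-base; open, 7-base). The matches of Lin28b and Hmga2 nearest the start are 8-base matches, and the only match in a late factor is the 7-base match of Nfia at base 6698.

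The late factors gave more reads than the early factors at this stage. Summed over the class, the 6 early factors gave 385 and 346 CPM in WT 1 and WT 2, and 384 and 350 in cKO 1 and cKO 2. The 4 late factors gave 1462, 1608, 1853 and 1551 CPM in the same order, which is 3.80, 4.65, 4.82 and 4.44 times the early sum. The ratio was lowest in WT 1, and the other 3 libraries lay close together. As log2 of early over late, it was -2.07 ± 0.21 in WT and -2.21 ± 0.085 in cKO (SD, n = 2 each), and the groups overlapped. The difference of -0.14 in this sum was smaller than the SD of the WT libraries, and it was 0.0073 without WT 1. Summed per kilobase of exon, the log2 ratio was -1.64 and -1.93 in WT 1 and WT 2, and -1.97 and -1.94 in cKO 1 and cKO 2. On that scale the groups no longer overlapped, but WT 2 and cKO 2 were nearly equal. As the mean log2 CPM of the early minus that of the late factors, which weights each gene equally, the values were -3.49 and -3.79 in WT 1 and WT 2, and -3.91 and -3.83 in cKO 1 and cKO 2. The groups did not overlap there either, but WT 2 at -3.79 and cKO 2 at -3.83 lay close together, and WT 1 stood apart at -3.49. The difference of -0.23 was slightly larger than the WT SD of 0.21, an SD that rests on the distance of WT 1 from WT 2. Lin28a, with no more than 4 reads in any library, weighed as much as every other factor in this mean.

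Levels were compared between genes per kilobase of exon, the union of all annotated exons of a gene. Nfix was highest, at 91.2 CPM per kilobase on average over the 4 libraries (76.4 to 101), followed by Nfib at 43.2 (36.0 to 52.3) and Nfia at 22.0 (18.9 to 25.4). Then came Igf2bp2 at 18.9 (18.3 to 19.7), Igf2bp1 at 13.3 (11.7 to 14.7), Nfic at 9.49 (9.08 to 9.85), Hmga2 at 6.83 (5.87 to 7.78), Igf2bp3 at 5.01 (4.12 to 5.93), Lin28b at 1.08 (0.747 to 1.41) and Lin28a at 0.0385 (0.0272 to 0.0576). The ranges over libraries overlapped for 2 neighbours in this order, Nfia with Igf2bp2 and Hmga2 with Igf2bp3, and for no others. By CPM, which is not corrected for length, Nfix was above 99.23%, Nfib above 99.18% and Lin28b above 36.8% of the 16145 genes tested. Per kilobase of exon they were above 97.5%, 92.9% and 22.1% of 16120 genes. A gene's union of exons can exceed the transcript that is made, which lowers its value per kilobase.

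**Figure D2:**
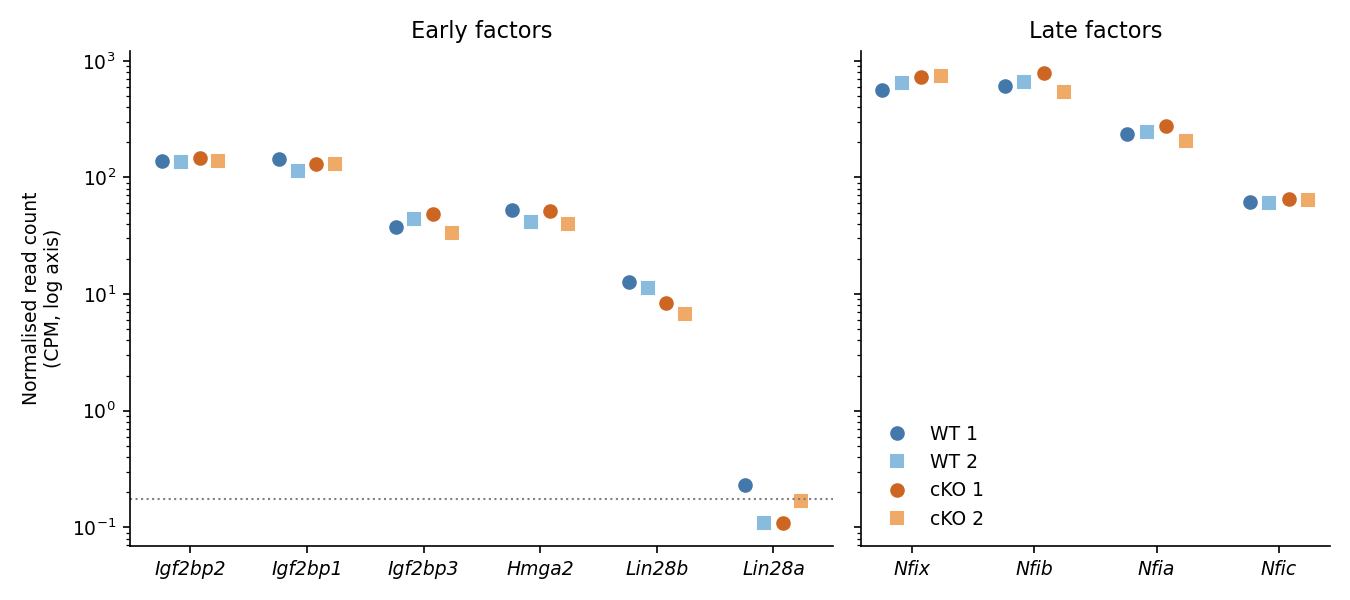
Normalised read count (CPM, log axis) of each temporal factor in the 4 libraries, with early factors on the left, late factors on the right and 1 point per library. The dotted line marks 0.174 CPM, the level of 3 counts in the shallowest library. Lin28b is higher in both WT libraries than in both cKO libraries, and Lin28a lies around the dotted line.

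Of the 10 factors, 9 passed the filter on low counts and were tested with edgeR's quasi-likelihood test. None of these 9 met the thresholds of the study's methods, a fold change of at least 2 with an unadjusted p of at most 0.05, which 0.811% of all 16145 genes met. None had a Benjamini-Hochberg adjusted p under 0.05, as for all genes (0%), and 1 of the 9, Lin28b, had an unadjusted p under 0.05, against 1.23% of all genes (199). Lin28b was also the only factor whose cKO libraries both lay below both WT libraries, which held for 10.8% of all genes. For Igf2bp2, Nfic and Nfix both cKO libraries lay above both WT libraries, which held for 11.0% of all genes. For Igf2bp2 this was close to a tie, with 139.57 CPM in cKO 2 against 139.46 in WT 1. The median size of the log2 fold change was 0.054 over the 9 factors and 0.13 over all genes tested. With 2 libraries per group, the 95% intervals of the 9 factors reached changes of 1.30-fold or more in at least 1 direction, which limits what a missing call says.

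Lin28b (ENSMUSG00000063804, chr10:45376620-45486395, minus strand, GRCm38) blocks let-7 maturation. Its counts were 222 and 209 in WT 1 and WT 2, and 154 and 121 in cKO 1 and cKO 2. The normalised levels were 12.8, 11.4, 8.42 and 6.77 CPM in that order. Both WT libraries were above both cKO libraries, and the gap between the groups, 11.4 against 8.42 CPM, was wider than the gap within either. The group means were 12.1 ± 1.00 CPM in WT and 7.59 ± 1.16 CPM in cKO (SD, n = 2 each). The log2 fold change was -0.67 (standard error 0.25, 95% interval -1.24 to -0.095), a cKO level 0.63 of the WT level. The unadjusted p of 0.028 became an adjusted p of 0.9999 in edgeR's quasi-likelihood test over all genes, so the difference did not pass. Over fits that leave out a single library the value ran from -0.83 without cKO 1 to -0.50 without cKO 2, so its size depended on the libraries kept. In bulk tissue, fewer cells that express a gene and less RNA per cell cannot be told apart.

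Lin28a (ENSMUSG00000050966, chr4:134003330-134018841, minus strand) is the other let-7 blocking paralog. It had 4 and 2 counts in WT 1 and WT 2, and 2 and 3 in cKO 1 and cKO 2, or 0.109 to 0.230 CPM. A count of 0 allows up to 3 counts, 0.162 to 0.174 CPM in these libraries, so Lin28a was above that limit in WT 1 and at or under it in the other 3 libraries, and no fold change is given. Lin28b supplied 97.6% to 99.1% of the counts of the pair in every library.

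Hmga2 (ENSMUSG00000056758, chr10:120361275-120476469, minus strand) encodes the chromatin protein described above. It had 916 and 759 counts in WT 1 and WT 2, and 938 and 710 in cKO 1 and cKO 2, which gave 52.7, 41.2, 51.3 and 39.7 CPM. The groups overlapped, since replicate 1 of each group was the higher and replicate 2 the lower by like amounts. The log2 fold change was -0.045 (standard error 0.20, 95% interval -0.51 to 0.42), smaller than the ratio of WT 1 to WT 2, which was 0.35 on the log2 scale.

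The IGF2BP proteins bind RNAs in the cytoplasm and take part in their transport, stability and translation. Igf2bp1 (ENSMUSG00000013415, chr11:95957163-96005940, minus strand) had 142, 113, 130 and 130 CPM in WT 1, WT 2, cKO 1 and cKO 2, from 2477, 2087, 2380 and 2318 counts. Its cKO libraries lay between the WT libraries, with a log2 fold change of 0.023 (95% interval -0.35 to 0.40). Igf2bp2 (ENSMUSG00000033581, chr16:22059009-22163299, minus strand) had 139, 136, 146 and 140 CPM in that order, from 2425, 2496, 2669 and 2494 counts. It was the least variable factor, the highest library being 1.08 times the lowest, and although the groups did not overlap the log2 fold change was only 0.054 (95% interval -0.27 to 0.38). Igf2bp3 (ENSMUSG00000029814, chr6:49085223-49214957, minus strand) had 37.4, 44.2, 48.4 and 33.6 CPM, from 650, 814, 885 and 601 counts. Its highest and its lowest library were both cKO, and the log2 fold change was 0.0073 (95% interval -0.49 to 0.50). The exons of Igf2bp3 overlap those of Malsu1, a gene on the opposite strand, over 18.7% of their length. Malsu1 had 211 to 252 counts, and whether reads were counted by strand was not given.

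Within the IGF2BP family the mean shares of counts differed between groups by less than the SD. Igf2bp1 took 41.6% ± 4.2 of the family's counts in WT and 41.5% ± 1.9 in cKO, and Igf2bp2 took 45.0% ± 1.8 and 45.5% ± 0.78 (SD, n = 2 each). The 3 genes are similar in sequence, as the 4 NFI genes are, and how reads that fit several copies were counted was not given.

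The late factors are DNA-binding proteins of 1 family that act in radial glia and in glial precursors. Nfix (ENSMUSG00000001911, chr8:84699876-84800344, minus strand) had 9769 and 11902 counts in WT 1 and WT 2, and 13358 and 13269 in cKO 1 and cKO 2, which gave 562, 646, 730 and 743 CPM. Both cKO libraries were above both WT libraries, and the cKO libraries were nearly equal. The means were 604 ± 59.8 CPM in WT and 736 ± 8.85 CPM in cKO (SD, n = 2 each), a log2 fold change of 0.29 (standard error 0.16, 95% interval -0.082 to 0.65). The value was 0.19 without WT 1 and 0.40 without WT 2, so either WT library moved it. With all 4 libraries an unadjusted p of 0.11 became an adjusted p of 0.9999 in edgeR's quasi-likelihood test, so the difference did not pass.

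Nfib (ENSMUSG00000008575, chr4:82290173-82705750, minus strand) had 10496 and 12125 counts in WT 1 and WT 2, and 14305 and 9622 in cKO 1 and cKO 2. Its levels were 604, 658, 782 and 538 CPM, so the cKO libraries lay on either side of the WT libraries. The log2 fold change was 0.065 (95% interval -0.41 to 0.54), while cKO 1 was above cKO 2 by 0.54 on the log2 scale. Nfia (ENSMUSG00000028565, chr4:97772734-98118874, plus strand) showed the same order of libraries, with 235, 243, 276 and 206 CPM from 4080, 4474, 5052 and 3683 counts. Its log2 fold change was 0.014 (95% interval -0.40 to 0.42). Nfic (ENSMUSG00000055053, chr10:81396186-81455635, minus strand) had 62.1, 60.2, 65.3 and 64.1 CPM from 1080, 1109, 1195 and 1146 counts, and a log2 fold change of 0.081 (95% interval -0.26 to 0.42). The groups of Nfic did not overlap, and the log2 fold change was smaller than its standard error of 0.15.

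Nfix and Nfib together made most of the NFI counts, and their balance differed in 1 library. The count of Nfix was 0.931 times that of Nfib in WT 1, 0.982 in WT 2 and 0.934 in cKO 1, but 1.38 times in cKO 2. As shares of the family, Nfix took 38.4%, 40.2%, 39.4% and 47.9%, and Nfib 41.3%, 40.9%, 42.2% and 34.7%, in WT 1, WT 2, cKO 1 and cKO 2. The shift was between the cKO libraries and not between the groups. Nfib has 14957 bases of exon and Nfix 7351, and longer genes tended to be lower in cKO 2 than in cKO 1, as described below. The part of length in this shift was not tested.

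**Figure D3:**
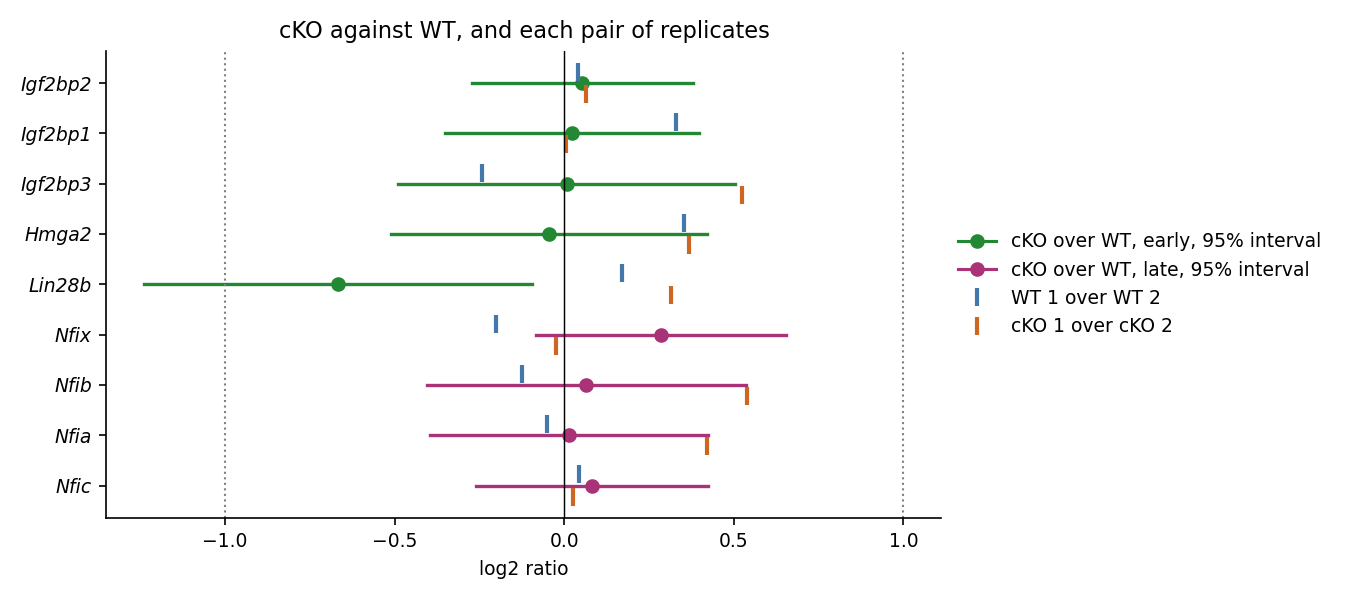
Log2 fold change of cKO against WT with its 95% interval (points and lines; green, early; purple, late), beside the log2 ratio of WT 1 to WT 2 (blue ticks) and of cKO 1 to cKO 2 (orange ticks). Dotted lines mark a 2-fold change. Only the interval of Lin28b (-1.24 to -0.095) leaves out 0, and its adjusted p is 0.9999.

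The size of the differences between replicates was compared with that between groups for each factor. For 5 of the 9 the ratio of WT 1 to WT 2 was larger in size than the fold change, and for 5 of the 9 that of cKO 1 to cKO 2 was. For Igf2bp3, Nfia and Nfib the cKO libraries lay on both sides of the WT libraries. Over all genes tested, the median size of the log2 ratio was 0.17 between the WT libraries and 0.30 between the cKO libraries. The median size of the log2 fold change over these genes was smaller, 0.13. A ratio of single libraries varies more than a fold change between group means. The shares of all genes with such ratios or such an order are not given here, so these counts do not set the factors apart.

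By class, the median log2 fold change was 0.0073 over the 5 early factors tested and 0.073 over the 4 late factors, beside a median of -0.0094 over all genes tested. Among the early factors, 2 of 5 were negative and 3 positive, while all 4 late factors were positive. The order of the classes turned without WT 1, with medians of 0.074 for early and 0.053 for late factors. Without cKO 1 the medians were -0.24 for early and -0.070 for late factors, and without cKO 2 they were 0.098 and 0.25.

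The libraries of the cKO group differed by gene length. The log2 ratio of cKO 2 to cKO 1 fell with exon length over 16120 genes (Spearman's rho -0.31, across genes, which are not independent replicates). Its median was 0.22 for 3052 genes under 2000 bases and -0.18 for 4698 genes of 6000 bases or more. For WT 2 over WT 1 the same medians were -0.043 and 0.037. All 9 tested factors had exons of 6000 bases or more, and 8 of the 9 were lower in cKO 2 than in cKO 1. After correction of the library sizes for exon length, a step chosen after seeing the data, the log2 fold change was -0.62 for Lin28b and 0.34 for Nfix, with unadjusted p of 0.026 and 0.072 and adjusted p of 0.9993 in edgeR's quasi-likelihood test. The source of the length difference was not tested.

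**Figure D4:**
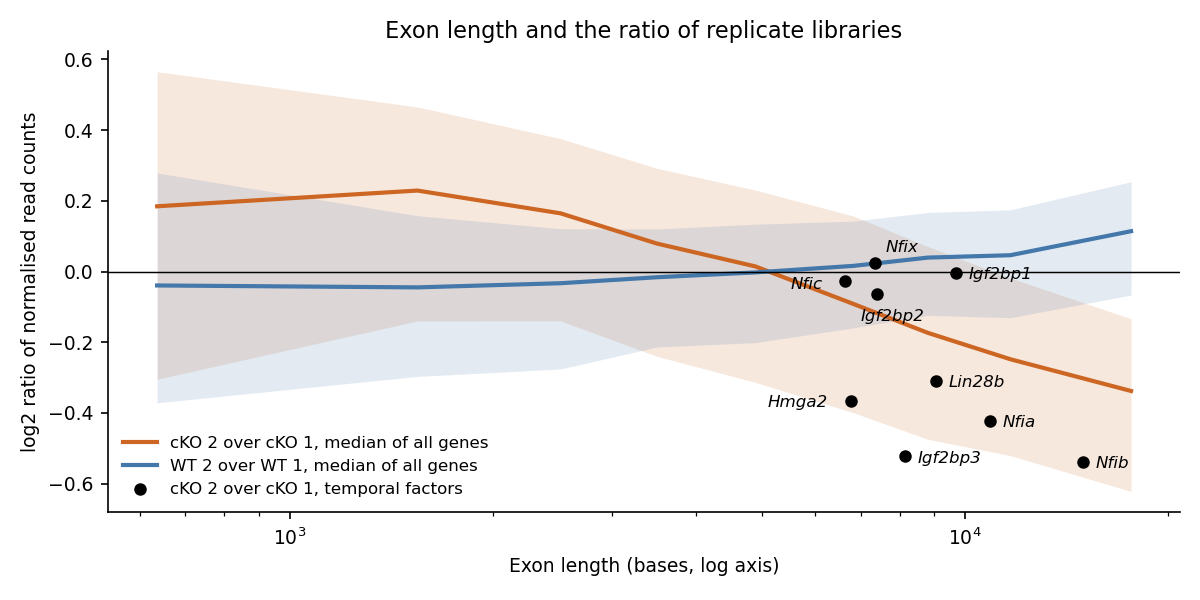
Log2 ratio of normalised read counts against exon length (bases, log axis) for cKO 2 over cKO 1 (orange) and WT 2 over WT 1 (blue), as the median of all tested genes in bins of length with the 25th to 75th percentile shaded. Black points are the 9 tested temporal factors for cKO 2 over cKO 1, and Igf2bp3 and Nfib lie lowest, at -0.52 and -0.54.

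Markers of meninges, choroid plexus and blood were highest in WT 1. This held for 12 of 12 meninges and mesenchyme markers, 8 of 8 choroid plexus markers and 7 of 7 blood markers. The mesenchyme markers summed to 333 and 75.5 CPM in WT 1 and WT 2, and 103 and 57.6 in cKO 1 and cKO 2, and the choroid plexus markers to 55.7, 10.5, 7.16 and 8.56 CPM. No marker of these 3 lists was at 0 in any library except Folr1, a choroid plexus gene, in WT 2. The summed endothelium markers were 184 and 136 CPM in WT against 120 and 118 CPM in cKO, and the microglia markers were 31.4 and 22.2 against 18.6 and 22.7. Of the early factors, 4 of 6 (Lin28a, Lin28b, Hmga2 and Igf2bp1) were highest in WT 1, as were 0 of 4 late factors. For Lin28a this rests on 4 counts in WT 1 against 2, 2 and 3 in WT 2, cKO 1 and cKO 2. The share of all genes that were highest in WT 1 is not given here. The part of these tissues in the levels was not tested. Without WT 1 the log2 fold change of Lin28b was -0.58, beside -0.67 with all 4 libraries.

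Genes that work with or below the temporal factors were read from the same fit, as 4 lists with 57 tested genes. Of these 57, 0 met the study's thresholds, beside 0.811% of all genes tested. With so low a share, 0 in lists of this size does not set them apart from other genes. The let-7 processing list holds the enzymes and partners that cut, export, load, uridylate or degrade let-7 precursors, such as Drosha and Dicer1. Of its 13 genes 8 were positive and 5 negative, with log2 fold changes between -0.12 for Ago4, an Argonaute protein, and 0.14 for Xpo5, which exports precursors from the nucleus. Zcchc11, which adds uridines to let-7 precursors, had 102, 111, 118 and 81.4 CPM in WT 1, WT 2, cKO 1 and cKO 2, so the groups overlapped.

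The list of other let-7 target genes had 7 positive and 6 negative members of 13. Myc, a growth factor-responsive transcription factor, was the most positive at 0.16, with 25.4, 26.7, 27.5 and 30.9 CPM. Trim71, a ubiquitin ligase and RNA-binding protein of early progenitors, was the most negative at -0.76 (standard error 0.61), from only 12, 22, 6 and 14 counts, and its groups overlapped. Trim71 has 4 seed matches in its 3′ UTR, as Lin28b, Hmga2 and Igf2bp1 do, and these 4 genes had log2 fold changes of -0.76, -0.67, -0.045 and 0.023. Other tested genes with 4 matches were Hic2, Zbtb37 and D10Wsu102e, at -0.25, -0.11 and 0.070. Their annotated 3′ UTRs had 4262, 16999 and 122583 bases, against 3014 to 6337 for Lin28b, Hmga2, Igf2bp1 and Trim71. The matches of Zbtb37 and D10Wsu102e are therefore far sparser. Nr6a1 and Nudt12, with 8 and 7 matches, were at -0.12 and -0.16.

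Genes with an annotated 3′ UTR were also described by their number of seed matches. The median log2 fold change was -0.0058 over 12195 genes with no match, -0.037 over 1276 genes with at least 1, -0.058 over 154 genes with 2 or more and -0.096 over 25 genes with 3 or more. The shares of genes past the study's thresholds were 0.730%, 0.705%, 1.30% and 0%. Among the genes with 3 or more matches the median deviation from the gene's mean was 0.084 and 0.038 in WT 1 and WT 2, and -0.011 and -0.078 in cKO 1 and cKO 2, so the libraries of a group differed about as much as WT 2 and cKO 1 did. These genes have long 3′ UTRs, and the length difference of cKO 2 stands beside them. Its part was not tested.

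The other temporal factors, transcription factors and RNA regulators of progenitor age, had 7 positive and 9 negative members of 16. Sox9, a factor of radial glia and glial fate, was the most positive at 0.14, with 96.6, 90.3, 105 and 101 CPM. Nr2f2, a nuclear receptor of the caudal and ventral telencephalon, was the most negative. It had 125 and 98.5 CPM in WT 1 and WT 2, and 64.1 and 80.4 in cKO 1 and cKO 2. This gave a log2 fold change of -0.63 (standard error 0.18). Its groups did not overlap, which held in the same direction for 10.8% of all genes. Its unadjusted p was 0.0092 with an adjusted p of 0.9999 in edgeR's quasi-likelihood test. The 8 ventral telencephalon markers summed to 1056, 1004, 667 and 1072 CPM in that order, lowest in cKO 1 as Nr2f2 was. The part of ventral tissue in that value was not tested.

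The NFI target and gliogenic genes had 3 positive and 12 negative members of the 15 tested. Their median was -0.14, beside -0.0094 over all genes tested. The share of all genes below 0 is not given here, so the count of signs does not set the list apart. Mmd2, a membrane protein induced with the onset of gliogenesis, was the most positive at 0.16, with 64.5, 71.6, 72.5 and 79.1 CPM in WT 1, WT 2, cKO 1 and cKO 2. Aqp4, the water channel of astrocytes, was the most negative at -1.06 (standard error 0.60), from 11, 12, 7 and 4 counts. It passed the fold threshold with an unadjusted p of 0.12, so it was not called. Mature glial genes were near detection at this stage, with 1 to 4 counts of Gfap and 3 to 4 of S100b in each library. Apcdd1, a Wnt inhibitor, is named after its values were seen. It had 105, 109, 66.2 and 78.8 CPM, a log2 fold change of -0.56 (standard error 0.15) with an unadjusted p of 0.0069 and an adjusted p of 0.9999 in edgeR's quasi-likelihood test. Nfia, which acts on Apcdd1 together with Sox9 in gliogenesis, had a log2 fold change of 0.014 in the same fit.

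**Figure D5:**
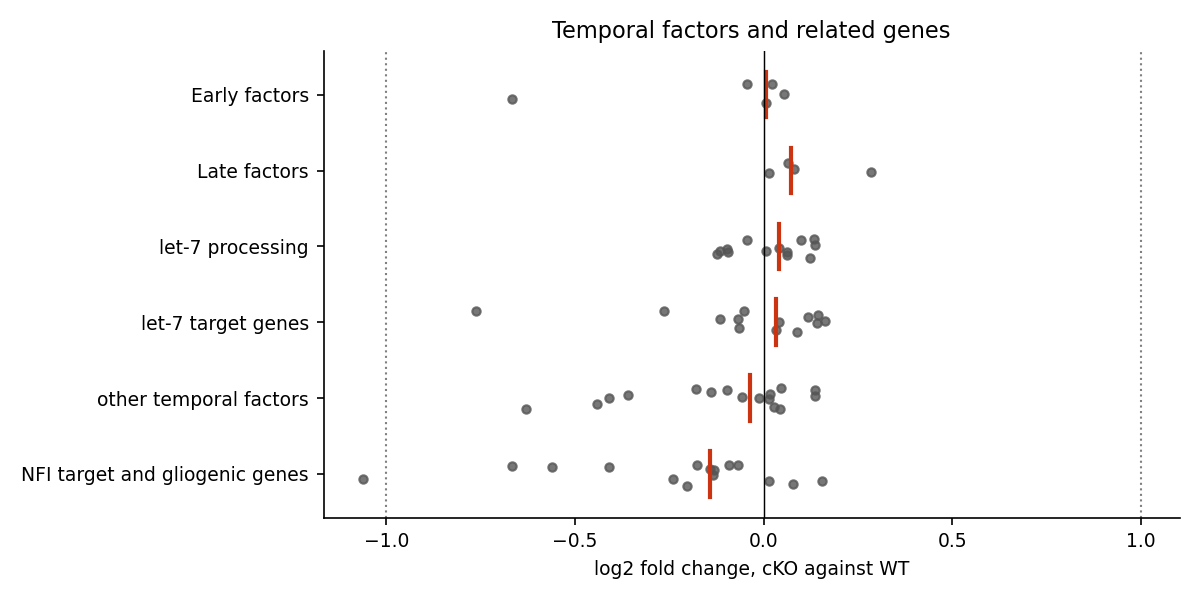
Log2 fold change of cKO against WT for each tested gene (points) of the early and late factors and of the 4 related lists, with the median of each list as a red line and dotted lines at a 2-fold change. Aqp4 at -1.06 is the only point beyond a dotted line, and its unadjusted p is 0.12.

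The genes most like Lin28b and Nfib, the early and the late factor with the widest range of log2 CPM, were found by the distance between their mean-centred log2 CPM over the 4 libraries. Nearest to Lin28b, with a range of 0.90, were Plek, Gm12571 and Nap1l3, at distances of 0.054, 0.060 and 0.086. Nap1l3 had 13.1, 12.4, 8.74 and 7.39 CPM in WT 1, WT 2, cKO 1 and cKO 2, close to the levels of Lin28b itself. Only 5 genes lay within a distance of 0.1. Nearest to Nfib, with a range of 0.54, were Plekha2, Rps6ka5 and Zfp462, at 0.024, 0.026 and 0.027, and 96 genes lay within 0.1. Zfp462 had 288, 313, 365 and 252 CPM, the order of libraries seen for Nfib and Nfia. With 4 libraries such likeness is a description only.

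Promoters were searched because the study followed NF-κB, a transcription factor that acts below STING. RefSeq gives a window of 300 bases around the start (250 before and 50 after) for 8 of the 10 factors, 11 windows in all. The study found NF-κB at Alx4 mainly further upstream than such a window reaches, so a like site would be missed. The NF-κB consensus matched in 1 of the 11, that of Lin28a, and in 8.46% of 32851 windows of all genes. Lin28a had 2 to 4 counts in every library, so its expression gave no comparison to set beside the match.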

How the data were processed

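Total RNA of E13 brain tissue, named as cortex or forebrain, was sequenced on an Illumina HiSeq instrument, and the authors deposited raw counts of reads per gene. The submitters' processing notes name Bowtie2 2.2.3, TopHat2 2.0.12 and HTSeq 0.6.0, without their settings, and the build mm9. Gene positions in the table of all 4 libraries were read as GRCm38, because 97.305% of 27232 genes had a start or end within 1 base of GENCODE M21. Of its 27304 rows, 11 (0.0403%) name no gene and were left out. A deposited table of WT 1 and cKO 1 alone gave equal counts for all 21342 shared genes and was not used further. The authors' fold changes, p-values, scaled values and mean normalized columns were not used.

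The 16145 genes that passed filterByExpr were tested by the quasi-likelihood method of edgeR 4.0.16 (R 4.3.3) after TMM scaling and without covariates, with Benjamini-Hochberg adjustment over all of them. Calls used either the study's thresholds, that is 2-fold or more together with an unadjusted p up to 0.05, or an adjusted p under 0.05. Intervals are at 95% and come from the fit. Log2 CPM used a prior count of 2. The procedure was tested on simulated counts. Depth differed little between libraries, and the limit of 3 counts covers counting error only. Alternatives were RLE size factors, library size only, other filters, DESeq2 1.42.0, a replicate block, leaving out each library and, chosen after seeing the data, offsets corrected for exon length.

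The factors and the gene lists were chosen with earlier results of these data known. Named were all factors, the genes with the largest and the smallest log2 fold change in each related list, any such gene past the study's thresholds, Tmem173, and the 3 genes nearest to the most variable early and late factor. Zcchc11, Gfap, S100b, Apcdd1, Id3, Malsu1, Folr1, Drosha, Dicer1 and the let-7 host genes were named after their values were seen. So were Hic2, Zbtb37, D10Wsu102e, Nr6a1 and Nudt12.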

Additional observations from a re-analysis of the deposited data

How the results depend on the processing

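No temporal factor met the study's thresholds or had an adjusted p under 0.05 in the 11 other analyses run, and the lowest adjusted p of Lin28b was 0.19, without cKO 1. The sign held in all 11 for Lin28b, Igf2bp2, Nfic and Nfix, with Nfix from 0.19 (without WT 1) to 0.40 (without WT 2), and turned in 1 to 3 of them for Hmga2, Igf2bp1, Igf2bp3, Nfia and Nfib. Lin28b had an unadjusted p under 0.05 in every analysis of all 4 libraries by edgeR or DESeq2. Those share the same counts and are not separate evidence. This did not hold in every fit with 1 library left out, where its log2 fold change ran from -0.83 (without cKO 1) to -0.50 (without cKO 2). Over all genes, the number past the study's thresholds was 131, and it was 65 with DESeq2, 405 with no filter on low counts, 72 with at least 10 counts in every library and 14 at an unadjusted p of at most 0.01. The number with an adjusted p under 0.05 was 0 (199 at an unadjusted p under 0.05), also with DESeq2, and 65 with no filter. The same-numbered libraries shared only a number (correlation of their deviations 0.108 over 16145 genes, 2 pairs), and the replicate block gave 208 genes past the study's thresholds and 5 past an adjusted p of 0.05. With 1 library left out, where the lone library is assumed to vary like the other group, these counts ran from 104 (without WT 1) to 531 (without cKO 1) and from 0 (without cKO 2) to 116 (without WT 2). In the related lists the count was 0 or 1, the 1 being Id3, a target of BMP signalling, at -1.08 without WT 2 and -1.02 without cKO 2. The median log2 fold change ran from -0.24 to 0.098 for the early and from -0.070 to 0.25 for the late factors, and the difference in the early to late ratio from -0.28 to 0.0073. The cause of these shifts was not tested. With 2 libraries a group, 2 to 4 counts of Lin28a, unknown strand handling and cKO 2 lower in long genes, small differences were not measurable.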

Other observations

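The hosts of let-7 were read for signs of its precursors, since the microRNA itself was not measured. Mir99ahg (ENSMUSG00000090386, chr16:77236317-77691403, GRCm38), a long noncoding RNA gene, contains the let-7c-1 and miR-99a hairpins. It had 422 and 249 counts in WT 1 and WT 2, and 290 and 147 in cKO 1 and cKO 2, or 24.3, 13.5, 15.8 and 8.23 CPM. The groups overlapped, and the libraries of each group were further apart than the group means. The log2 fold change was -0.65 (standard error 0.37), with an unadjusted p of 0.12 and an adjusted p of 0.9999 in edgeR's quasi-likelihood test. Reads on the miR-99a hairpin numbered 55, 36, 35 and 28 in the same order, and the groups of its CPM values (3.16, 1.96, 1.91 and 1.57) did not overlap, although WT 2 and cKO 1 were nearly equal. Such an order held for 10.8% of all genes in the same direction.

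The let-7 hairpins themselves had few counts. Mirlet7b had 12, 7, 13 and 15 counts, Mirlet7c-2 had 8, 9, 6 and 4, and Mirlet7c-1 and Mirlet7a-1 had 0 to 3 in each library. These libraries hold long RNA, so the counts do not measure mature let-7.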
